A study of Homo sapiens with 2 samples.

Results

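Amino acid transporters of the solute carrier (SLC) superfamily were examined by RNA sequencing in CWR22rv1 cells, an androgen receptor-positive human prostate cancer line. The 43 genes were chosen by symbol out of the 19607 genes in the deposited table: every gene of the families SLC1A, SLC3A, SLC7A, SLC36A, SLC38A and SLC43A, except SLC7A11, and of the SLC6 family SLC6A9, SLC6A14, SLC6A15 and SLC6A19. The rule uses symbols and no measured value, but it was written with earlier results of these data known. The 2 libraries were 1 of Akt1/2 DKO cells, in which CRISPR/Cas9 guides for both AKT1 and AKT2 had been used, and 1 of control cells, labelled wild type. Cells were grown in RPMI medium with foetal bovine serum, and the labels give no treatment. Knockout cells were isolated as monoclonal lines, and the labels do not say which was sequenced. Clonal differences and the loss of Akt1/2 therefore cannot be told apart. With 1 library per condition no difference has a replicate check.

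Amino acids cross membranes on carriers that differ in substrate and in driving force. Sodium-coupled carriers of the SLC1 and SLC38 families concentrate glutamate, glutamine and small neutral amino acids. System L exchangers, made of a light chain such as SLC7A5 bound to the heavy chain SLC3A2, trade intracellular glutamine for leucine and other large neutral amino acids, and leucine activates the growth kinase mTORC1 at the lysosome. The facilitators SLC43A1 and SLC43A2 carry large neutral amino acids without exchange. SLC43A1 was first described as a gene overexpressed in prostate cancer, and Akt signalling is known to promote nutrient uptake.

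The authors deposited estimated reads per gene, with a total of 9970820 for control and 10718650 for Akt1/2 DKO. Reads were rounded and scaled for library size by the TMM method of edgeR, and a fold change is Akt1/2 DKO over control. Each 95% interval is the exact Clopper-Pearson one for how a gene's reads split between the libraries, and it covers counting error only. Levels of different genes were compared with the authors' FPKM, which divides fragments by the length of the transcript and by depth. AKT1 had 2645 reads in control and 591 in Akt1/2 DKO, and AKT2 had 2362 and 667, so both targeted genes were lower in the library labelled as the knockout. The 12 prostate luminal markers each had more than 3 reads in both libraries (26388 and 40500 reads in sum). Of 7 fibroblast markers 4 had more than 3 reads in each library. The sum over the 7 was 1037 reads in control and 240 in Akt1/2 DKO, of which VIM held 897 and 84. COL3A1 was also lower in Akt1/2 DKO (74 and 9 reads), while COL1A1 (55 and 106) and LUM (5 and 35) were higher. The 4 leukocyte and 3 endothelial markers had at most 2 reads in sum in either library. The part of these marker differences in the results was not tested.

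Over both libraries, 25 of the 43 transporters reached 10 reads, and only such genes are called expressed below. Of these, 9 were at least 1.5-fold higher in Akt1/2 DKO and 3 at least 1.5-fold lower. Among all 13318 genes that passed the same filter, 15.9% were at least 1.5-fold higher and 15% at least 1.5-fold lower. The median log2 fold change of the 25 transporters was 0.36, beside 0.01 over all genes, and 18 of the 25 lay above 0, beside 50.7% of all genes. Low counts pass a fold threshold more easily. Of the 21 transporters that reached 100 reads over both libraries, 7 were higher and 3 lower, where 11.3% and 11.9% of all 10956 such genes were. At a 2-fold threshold 5 transporters were higher and 3 lower, beside 10% and 7.94% of all 13318 genes. In bulk RNA, fewer cells that express a gene and less RNA per cell cannot be told apart.

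Expression was concentrated in a few carriers. SLC38A2, the stress-inducible system A carrier of glutamine and alanine, had the highest level in both libraries, 310.24 FPKM in control and 238.26 in Akt1/2 DKO. It made up 37.3% of the summed FPKM of the 43 genes in control and 25.3% in Akt1/2 DKO. The sum itself was 832 FPKM in control and 940 in Akt1/2 DKO. The next genes in control were SLC1A5 (112.37 FPKM), SLC38A1 (88.65), SLC3A2 (87.42) and SLC7A5 (46.73). In Akt1/2 DKO the order after SLC38A2 was SLC3A2 (146.52 FPKM), SLC1A5 (142.48), SLC7A5 (97.73), SLC43A3 (81.41) and SLC38A1 (68.72). SLC43A3 thus moved from rank 9 to rank 5 among the 43 genes, while SLC43A2 went from rank 8 to 15, SLC43A1 from 13 to 21 and SLC38A4 from 10 to 23.

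The carriers of large neutral amino acids differed in opposite directions. SLC7A5 (LAT1, the principal system L light chain) had 2129 reads in control and 4786 in Akt1/2 DKO, 2.03-fold higher (95% interval 1.93 to 2.13). Its heavy chain SLC3A2 (4F2hc or CD98), which brings the light chains to the plasma membrane, had 1599 and 2956 reads, 1.67-fold higher (1.57 to 1.77). SLC7A8 (LAT2), the second system L light chain, had 75 and 163 reads, 1.96-fold higher (1.48 to 2.61). These 3 genes of the exchangers were all higher in Akt1/2 DKO, unlike the facilitators SLC43A1 and SLC43A2 described below. Each of the 3 had an interval that leaves out no change. Such an interval, in either direction, was found for 6826 of the 10956 genes with at least 100 reads over both libraries.

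Both SLC43 facilitators of the same substrates were lower. SLC43A2 (LAT4) had 716 reads in control and 210 in Akt1/2 DKO, 3.78-fold lower (3.24 to 4.43). SLC43A1 (LAT3) had 209 and 60 reads, 3.86-fold lower (2.89 to 5.24). In FPKM, SLC7A5 and SLC7A8 together stood at 49.8 in control and 103 in Akt1/2 DKO, and SLC43A1 and SLC43A2 together at 32.2 and 8.07. The ratio of the first sum to the second was therefore 1.54 in control and 12.8 in Akt1/2 DKO. The genes of SLC7A5, SLC3A2 and SLC43A1 lie on chromosomes whose expressed genes had median log2 fold changes of 0.01 (chromosome 16) and 0.03 (chromosome 11), and SLC43A2 on chromosome 17 with a median of 0.02.

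The third SLC43 gene went the other way. SLC43A3, which despite its family name is known as a carrier of purine nucleobases (ENBT1) rather than of amino acids, had 333 reads in control and 1895 in Akt1/2 DKO. This was 5.13-fold higher (4.57 to 5.78), the highest fold among the 9. With the authors' FPKM its log2 fold change was 2.12 rather than 2.36. The other 8 of the higher genes are carriers of amino acids or, for SLC3A2, the heavy chain of such carriers.

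The remaining light chains were within 1.5-fold or near the floor. SLC7A6 (y+LAT2), an exchanger of cationic for neutral amino acids, had 313 and 370 reads, with a log2 fold change of 0.09 (-0.13 to 0.31). SLC7A7 (y+LAT1) had 1 and 2 reads, and SLC7A9, the light chain of the kidney and gut cystine carrier, had 0 and 4. Its heavy chain SLC3A1 had 0 and 3 reads. SLC7A10 and SLC7A13 had 0 reads in both libraries.

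The 4 expressed SLC1 carriers had fold changes above 1. SLC1A5 (ASCT2), the neutral exchanger through which many tumour cells take up glutamine, had 2733 and 3892 reads, a log2 fold change of 0.36 (0.29 to 0.43), which is short of 1.5-fold. Its close relative SLC1A4 (ASCT1), a carrier of serine, alanine and cysteine, had 511 and 762 reads, 1.35-fold higher (1.20 to 1.51). SLC1A1 (EAAT3), which takes up glutamate, aspartate and cysteine, had 78 reads in control and 175 in Akt1/2 DKO. It was the only SLC1 gene past the threshold, 2.02-fold higher (1.54 to 2.68). SLC1A3 (EAAT1), the glial glutamate carrier, had 192 and 267 reads, 1.25-fold higher (1.04 to 1.52). The neuronal and glial carriers SLC1A2 (0 and 6 reads), SLC1A6 and SLC1A7 (0 reads in both) were at or near the floor.

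Among the cationic amino acid carriers, which bring in arginine, lysine and ornithine, SLC7A1 (CAT1) was the main gene. It had 2507 reads in control and 3450 in Akt1/2 DKO, 1.24-fold higher (1.18 to 1.31). SLC7A2 (CAT2) had only 21 and 46 reads, 1.98-fold higher with a wide interval from 1.16 to 3.49, and its level was 0.34 and 0.56 FPKM beside 33.99 and 43.5 for SLC7A1. SLC7A4 had 4 reads in each library, and SLC7A3 and SLC7A14 had 0.

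The SLC38 family held both the most abundant transporter and the one with the largest fold difference. SLC38A2 (SNAT2) had 10072 reads in control and 9092 in Akt1/2 DKO, 1.23-fold lower (1.19 to 1.26). Its neighbour SLC38A1 (SNAT1), another system A carrier of glutamine, had 5474 and 4673 reads, 1.30-fold lower (1.25 to 1.35). Both differences are narrow in counting error and short of 1.5-fold, and both stayed below 0 under the other scalings. SLC38A4 (SNAT4), a system A carrier best known in liver, had 397 reads in control and 27 in Akt1/2 DKO, 16.3-fold lower (11 to 25.1). Its level went from 12.26 to 0.76 FPKM.

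The other SLC38 genes differed less. SLC38A9, a lysosomal protein that reports arginine to mTORC1, had 86 and 148 reads, 1.55-fold higher (1.18 to 2.05), just past the threshold. With the authors' FPKM its log2 fold change was 0.52, which is under 1.5-fold. SLC38A7, which exports glutamine from lysosomes, had 273 and 317 reads, a log2 fold change of 0.07 (-0.17 to 0.31). SLC38A10 had 982 and 836 reads, 1.30-fold lower (1.19 to 1.43). SLC38A6 had 27 and 42 reads, with a log2 interval from -0.24 to 1.24. SLC38A5 (SNAT5), a system N carrier of glutamine and serine, had 3 and 11 reads. Its log2 fold change of 1.73 passes 1.5-fold, but the interval (-0.19 to 4.21) includes 0. SLC38A3 (SNAT3) had 29 and 25 reads, a log2 fold change of -0.36 (-1.20 to 0.46). SLC38A3 lies on chromosome 3, where the median over 754 expressed genes was -0.54 on the log2 scale, and the part of that shift in its value was not tested. SLC38A11 had 3 and 0 reads, and SLC38A8 had 0 in both.

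In the SLC6 family, SLC6A15 (B0AT2), a sodium-coupled carrier of branched-chain amino acids and proline known mainly from brain, had 192 reads in control and 466 in Akt1/2 DKO, 2.19-fold higher (1.85 to 2.60). SLC6A9 (GLYT1), the glycine carrier, had 234 and 385 reads, 1.48-fold higher (1.26 to 1.75), just short of the threshold. Under total count and upper-quartile scaling SLC6A9 passed it. SLC6A19 had 0 and 2 reads, and SLC6A14 had 0 in both. In the proton-coupled SLC36 family, SLC36A1 (PAT1), which moves small amino acids out of lysosomes, had 214 and 290 reads, 1.22-fold higher (1.02 to 1.47). SLC36A4 had 6 and 1 reads, and SLC36A2 and SLC36A3 had 0.

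In all, 18 of the 43 genes had fewer than 10 reads summed over both libraries, 10 of them with 0 reads in both. A count of 0 allows up to 3 reads, or 0.301 CPM in control and 0.28 CPM in Akt1/2 DKO. Some reads could be shared with other genes. SLC7A5 has the pseudogenes SLC7A5P1 and SLC7A5P2, and its estimated reads were not exactly whole numbers, nor were those of SLC7A6 and SLC38A6. Exons of SLC38A6, SLC6A9 and SLC7A6 overlap those of a protein-coding gene on the opposite strand (TRMT5, CCDC24 and SLC7A6OS), and exons of SLC43A3 overlap AP000781.2 on the same strand. The sources used here do not state whether counting used the strand.

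Several transporters are neighbours in the genome, and their positions in GENCODE release 29 (build GRCh38) were set beside their values. SLC43A3 (chromosome 11 from 57406954 to 57427580) and SLC43A1 (57484534 to 57515786) lie 57.0 kb apart on the same strand, with 1 expressed gene between them. SLC43A3 was 5.13-fold higher and SLC43A1 3.86-fold lower. The gene between them, RTN4RL2, had a log2 fold change of -0.27 (-0.75 to 0.22), and TIMM10, next on the far side of SLC43A1, had 0.29 (0.07 to 0.50).

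On chromosome 12, SLC38A1 (46183063 to 46270017), SLC38A2 (46358189 to 46372867) and SLC38A4 (46764761 to 46832408) follow each other with no other expressed gene between them. SLC38A4 stood apart from both of its family neighbours. The next 2 expressed genes beyond it, chosen for mention after their values were seen, were also low in Akt1/2 DKO. AMIGO2, a cell adhesion molecule, went from 199 to 5 reads, 44.1-fold lower (18.6 to 137). PCED1B went from 94 to 7 reads, 14.9-fold lower (6.95 to 38), and the ends of these 2 genes overlap on opposite strands. RPAP3, the next expressed gene, had 544 reads in control and a log2 fold change of 0.04 (-0.13 to 0.21). The low stretch thus held 3 adjacent expressed genes between SLC38A2 and RPAP3. For 6 of the 12 transporters past 1.5-fold, the expressed gene on each side was within 1.5-fold, among them SLC43A1, SLC43A3, SLC7A5 and SLC7A8. This held for 40.3% of all 4099 genes past 1.5-fold, so the transporters' count is near the background. A next gene past 1.5-fold in the same direction was found for 4 of the 12 (SLC1A1, SLC38A4, SLC3A2 and SLC7A2), beside 44.2% of all such genes. Beyond SLC7A2, PDGFRL (2 and 13 reads) was 5.86-fold higher (1.33 to 53.5) and MTUS1 (49 and 712 reads) 13.1-fold higher (9.81 to 17.9).

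Promoters from RefSeq (build GRCh38.p14), 250 bases before to 50 after each start site, were present for 34 of the 43 genes, with 56 start sites in all. The core of the amino acid response element, TGATGNAA, through which ATF4 with C/EBP proteins induces genes when amino acids run short, was searched on both strands. It was found at 6 of the 56 start sites (10.7%), beside 3.62% of all 35116 promoters. These sites are shown because ATF4 is a known inducer of several of the transporters. Each line gives 30 bases, 5′ to 3′ in the gene's direction, with the match in capitals.

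SLC3A2, chr11:62881719-62881748, plus strand: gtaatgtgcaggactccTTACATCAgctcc
SLC1A5, chr19:46784893-46784922, minus strand: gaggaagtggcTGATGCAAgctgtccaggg
SLC1A4, chr2:64989381-64989410, plus strand: gcggctcccgtTTGCATCAtctccagccgg
SLC1A3, chr5:36596357-36596386, plus strand: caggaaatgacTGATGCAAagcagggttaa
SLC7A1, chr13:29595663-29595692, minus strand: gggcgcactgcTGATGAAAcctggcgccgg
SLC38A1, chr12:46266502-46266531, minus strand: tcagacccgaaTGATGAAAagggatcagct

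The match in SLC3A2 and in SLC1A4 is the reverse complement of the core. Of these 6 genes, 5 had log2 fold changes above 0, from 0.31 for SLC7A1 to 0.74 for SLC3A2, and SLC38A1 had -0.38. Among all 25 expressed transporters 18 lay above 0, and among all genes 50.7% did. Of the 6 genes, only SLC3A2 was past 1.5-fold. Some of these start sites are alternative ones of their gene, and which was used in these cells was not measured.

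The forkhead motif TGTTTAC, which FOXO proteins recognise, was also searched, since Akt is known to hold FOXO proteins out of the nucleus. It was found at 2 of the 56 start sites (3.57%), beside 3.42% of all promoters. SLC43A1, 3.86-fold lower in Akt1/2 DKO, had it in reverse complement 24 bases before a listed start site, and the 30 bases are shown as the only match in a gene past the threshold.

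SLC43A1, chr11:57514915-57514944, minus strand: ccctccctttgGTAAACAcacccgcccgcc

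The other match was in SLC1A5, at a start site where the amino acid response element core was also found. A match is a stretch of letters and not a measured binding site.

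Other genes of amino acid handling were taken from 4 lists. Enzymes of glutamine and glutamate metabolism had 6 of 19 genes at least 1.5-fold higher and 0 lower, beside 15.9% and 15% of all genes. All 19 had at least 100 reads over both libraries, and of all such genes 11.3% were higher and 11.9% lower. The median log2 fold change of the 19 was 0.35. GLUL, glutamine synthetase, which makes glutamine from glutamate, had 1153 reads in control and 21244 in Akt1/2 DKO, 16.6-fold higher (15.7 to 17.6). Its level of 474.4 FPKM in Akt1/2 DKO was above that of every transporter, from 27.51 FPKM in control, and processed pseudogenes of GLUL could share reads with it. OAT, ornithine aminotransferase, had 329 and 1973 reads, 5.41-fold higher (4.81 to 6.10). GFPT1, which uses glutamine to start hexosamine synthesis, was 2.22-fold higher (2.00 to 2.46), and CAD, which uses it to start pyrimidine synthesis, was 1.58-fold higher (1.5 to 1.67).

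ATF4 itself had 7815 and 9944 reads, a log2 fold change of 0.20 (0.16 to 0.24). Of the 12 genes in the list of ATF4 and its induced genes, 6 were at least 1.5-fold higher and 0 lower. This stands beside the same 15.9% and 15% of all genes. All 12 had at least 100 reads over both libraries, and of all such genes 11.3% were higher and 11.9% lower. The median log2 fold change of the 12 was 0.62. PHGDH, the first enzyme of serine synthesis, was 2.01-fold higher, STC2, a secreted stress protein, 2.12-fold, TRIB3, a pseudokinase that can bind Akt, 1.72-fold and CEBPB, a transcription factor, 1.73-fold. ASNS and PSAT1 stand in both of these lists, at log2 fold changes of 0.48 and 0.41.

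The listed genes of amino acid sensing at the lysosome differed little. The list leaves out SLC38A9, 1.55-fold higher, which was counted among the transporters. The 34 listed genes, of which 33 were found, include MTOR, the Rag GTPases and the Ragulator, GATOR and KICSTOR complexes. Of the 33, 0 were at least 1.5-fold higher and 1 lower, beside 15.9% and 15% of all genes. All 33 had at least 100 reads over both libraries, and of all such genes 11.3% were higher and 11.9% lower. The median log2 fold change of the 33 was -0.03. With 1 library per condition no test stands behind these counts. The lower gene was GATSL3, which encodes the arginine sensor CASTOR1, with 82 and 36 reads, 2.53-fold lower (1.69 to 3.85). SESN2, the leucine sensor, had 438 and 554 reads, a log2 fold change of 0.19 (0.01 to 0.37). It also stands in the list of ATF4 and its induced genes.

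Other amino acid carriers, among them those of mitochondria and lysosomes, had 3 of 16 genes (18.8%) higher and 1 (6.25%) lower, with a median log2 fold change of 0.15. The share higher is near the 15.9% of all genes, and 15% of all genes were lower. SLC17A5 (sialin), the lysosomal exporter of sialic acid, was 2.89-fold higher (2.35 to 3.58), and SLC6A17, a vesicular carrier of neutral amino acids, 2.32-fold (1.92 to 2.82). SLC16A10 (TAT1), the carrier of aromatic amino acids, was 1.61-fold higher (1.06 to 2.48) with 37 and 66 reads. Its log2 fold change was 0.69 in reads and 1.94 in the authors' FPKM. SLC17A7, a vesicular glutamate carrier, was 1.53-fold lower (1.20 to 1.94).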

How the data were processed

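RNA-seq libraries of 1 Akt1/2 DKO and 1 control sample were analysed. The authors deposited estimated counts per gene, not normalized, and FPKM values. The submitters' processing notes name fastp 0.20.0, TopHat, Cufflinks and edgeR and the build GRCh38.p10, with no role given, and the counting tool and strand setting are not given in the sources used here. Other deposited files, which hold the authors' own fold changes, p-values, changed genes, ontology classes and correlation, were not used.

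Estimated counts were rounded, and 11.1% of the genes had a count that was not exactly whole (tolerance 0). Genes with at least 10 reads in both libraries together were kept, 13318 of 19607. TMM factors (edgeR 4.0.16, R 4.3.3) set the library size ratio, Akt1/2 DKO over control, at 1.11. No p-value was computed, since each condition is 1 library. A called gene differed by at least 1.5-fold. A library with 0 reads was set to 3 reads for a fold, and no fold was given where both held 3 or fewer. Intervals used scipy 1.17.1 in Python 3.11.15. The alternatives were total count, upper-quartile and DESeq2 1.42.0 scaling, folds of the authors' FPKM, no read filter or a stricter one, a threshold of 2-fold, intervals that exclude no change, and a prior count of 1. On simulated counts for the same comparison, 99.5% of 200 changed genes and 4.92% of 13122 unchanged genes passed 1.5-fold. Changed genes were drawn from those with at least 100 reads and had true folds of at least 2. Counts carried Poisson error only, so these shares do not measure the accuracy of calls near 1.5-fold or differences between clones. Positions are from GENCODE release 29, which holds 19571 of the 19607 gene identifiers.

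Genes named are all 43 transporters, AKT1, AKT2, ATF4, and from each other list at most 4 genes higher and 4 lower, those with most reads among the genes past 1.5-fold with at least 100 reads. Neighbours in the genome, and list genes named outside this rule (SESN2, ASNS, PSAT1), were added after their values were seen. The transporters and lists were chosen with earlier results of these data known. The list of overlapping genes is not complete, since 1 overlap is not reported here.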

Additional observations from a re-analysis of the deposited data

How the results depend on the processing

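The numbers of transporters higher and lower and their median log2 fold change stayed close under the other scalings, the authors' FPKM, each read filter and intervals that exclude no change. The number higher ran from 7 to 10, the number lower from 3 to 4 and the median from 0.33 to 0.42. A 2-fold threshold left 5 genes higher, since it asks for a larger difference, and 3 lower. The filter at 100 reads was chosen after seeing the data. Of 25 transporters, 0 past 1.5-fold changed sign under any setting run. Total count and upper-quartile scaling took SLC6A9 past 1.5-fold, the authors' FPKM took SLC38A6 past it and SLC38A9 short of it, and SLC38A7 and SLC7A6, both near 0, changed sign with FPKM (-0.04 and -0.06). Relative to the median gene, the reads behind 1 FPKM were 0.707 times as many in Akt1/2 DKO as in control for SLC38A6. They were 1.11 times as many for SLC38A7, 1.12 times for SLC38A9 and 1.14 times for SLC7A6. Why they differed was not tested. Depth limits SLC38A3, SLC38A5 and SLC38A6, whose intervals include no change. No paired analysis was possible because there is 1 library of each genotype.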

Other observations

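The number of reads behind 1 FPKM gives the transcript length that the authors' values assume, and it was compared between the libraries for the 24 transporters with at least 50 reads. Relative to the median gene, this length was 1.22 times as long in Akt1/2 DKO as in control for SLC43A3, 1.24 times for SLC7A2, 1.14 times for SLC7A6 and 0.707 times for SLC38A6. In all, 7 of the 24 transporters lay more than 1.1 times from the median gene in either direction, beside 20.6% of 11712 genes. For SLC38A6 the log2 fold change was 0.49 in reads and 1.03 in FPKM. Reads of single transcripts were not analysed here.

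SLC7A7 and SLC7A8, light chains whose genes lie 295 kb apart on chromosome 14, differed in whether they were detected, with 3 reads in sum for SLC7A7 (1 in control and 2 in Akt1/2 DKO) and 75 and 163 for SLC7A8. The 3 genes SLC36A3, SLC36A2 and SLC36A1 follow each other on chromosome 5 with gaps of 11.2 and 89.5 kb, and only SLC36A1 had reads.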
